A study of Mus musculus with 6 samples.

Results

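The transient receptor potential (TRP) genes encode cation channels that open on heat, irritants, lipids, oxidative stress or receptor signalling. Described here are 9 of them, chosen by mouse symbol and matched to Ensembl identifiers: Trpm3, Trpm7, Trpm2, Trpm4, Trpc1, Trpc4, Trpv2, Trpa1 and Trpv1. They are 9 of 28 TRP genes and of 54532 genes in the tables. The tissue was the cervical spinal cord of C57BL/6 mice, sequenced as total RNA from 3 mice with allergic contact dermatitis (ACD) and 3 controls. ACD was induced with squaric acid dibutylester (SADBE), a contact allergen dissolved in acetone. Once a day on 3 days, 20 µl of 1% SADBE was put on the shaved abdomen. After 5 days the ACD mice were challenged on the shaved nape with the same volume and strength of SADBE, daily for 3 days, and the nape of the controls was given acetone. The labels leave unclear whether the controls were also given SADBE on the abdomen. They give no age or sex, and the source tissue is whole cord with no sorting of cells.

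TRP channels assemble from 4 subunits around a pore, and most of them let calcium into the cell. In the itch pathway Trpv1 and Trpa1 work in the peripheral sensory neurons, whose cell bodies lie in the dorsal root ganglia outside the cord and whose axons end in its dorsal horn. The cord itself uses other family members, in neurons, glia and vessels, for receptor-coupled calcium entry, magnesium uptake and the sensing of oxidative stress.

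Levels are given as FPKM, the fragments of a gene divided by its exon length in kilobases and by a library denominator, so that different genes can be set side by side. The denominators recovered from the tables were 17346315 to 20245576 in the ACD libraries and 16916600 to 18583992 in the controls. They differ from the summed recovered reads, which were 1.85e+07 to 2.15e+07 in ACD and 1.65e+07 to 1.89e+07 in controls. The FPKM of all genes summed to 297035 to 313140 in ACD and 279996 to 299956 in control libraries. ACD libraries had 23511 to 24194 genes above 0, and control libraries 24982 to 25870. A limma fit of log2(FPKM + 0.1) over the 21369 genes that averaged 0.1 FPKM or more gave the fold changes, in which a negative sign means lower in ACD, and a change was called at a Benjamini-Hochberg adjusted p under 0.05. That scale understates the change of genes with low levels. The labels call the 3 libraries of each group biological replicates, and the p-values measure the spread between these libraries. The markers of spinal cord cells were present: 4 oligodendrocyte markers summed to 5689 to 6779 FPKM in ACD and 3630 to 5646 in control cords, and 4 motor neuron markers to 41.3 to 65.2 in ACD and 41.2 to 62.2 in controls.

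Among the 9 genes the channel-kinase Trpm7 was lower in ACD cords, with 0.705 times the mean level of control cords. It was the 1 gene called of the 7 that passed the filter on low values, and no gene was called higher. Over all tested genes 4.34% were called, 2.53% lower and 1.81% higher, so with 7 genes this is a result about Trpm7 and not about the family. Trpm3, Trpm2, Trpc1, Trpv2, Trpm4 and Trpc4 did not pass the test, and Trpv1 and Trpa1 were too low to be tested. In bulk tissue, fewer cells of a type and less RNA per cell cannot be told apart, for Trpm7 as for any other gene.

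**Figure D1:**
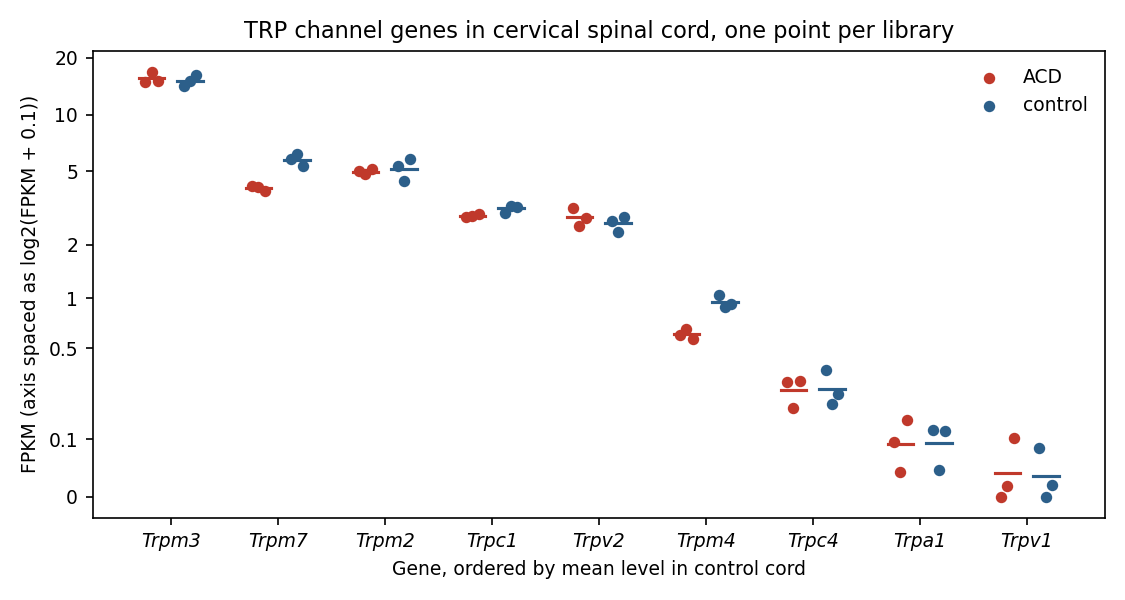
FPKM of the 9 genes in each library, with ACD libraries in red left of control libraries in blue; the vertical axis is spaced as log2(FPKM + 0.1), and the short lines are means on that scale (n = 3 each). Trpm3 lies highest, at 14.9 to 16.9 FPKM in ACD and 14.3 to 16.2 in control libraries, and Trpm7 and Trpm4 show a clear gap between the groups.

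Trpm7 is a cation channel with a protein kinase domain at its C-terminal end and takes part in magnesium and zinc uptake in most tissues. The gene lies on the minus strand of chromosome 2 at 126791565 to 126876230 (mm10), with 11.3 kb of exons. Its level was 4.17, 4.14 and 3.93 FPKM in ACD cords 1 to 3, against 5.83, 6.19 and 5.35 in controls 1 to 3. All 3 ACD values lay below all 3 control values, and the highest ACD value was well under the lowest control. Behind these levels stood 819, 949 and 813 reads in the ACD libraries and 1116, 1301 and 1050 in the controls. The means were 4.08 ± 0.134 FPKM in ACD and 5.79 ± 0.420 in controls (SD, n = 3 each). Trpm7 fell by 0.49 on the log2 scale (SE 0.08, limma adjusted p = 0.0259), with a 95% confidence interval of the fold from 0.622 to 0.813.

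The spread of Trpm7 between ACD libraries, a coefficient of variation of 3.27%, was no larger than the 3.41% that counting its reads alone would give. Between controls it was 7.25%, against 2.94% from counting. As a share of the summed FPKM of the 9 genes, Trpm7 made up 13.0% ± 0.404 in ACD and 17.4% ± 1.82 in control cords (SD, n = 3 each). Trpm3 was the largest part of that sum, and its level relative to other genes may be off, as described below, so the size of these shares may be off too.

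The call of Trpm7 was lost when the trend of the values with exon length and GC content was taken out, which left a log2 fold change of -0.25 (limma adjusted p = 0.105) in a fit that called 2.19% of genes lower. It was also lost when any 1 of 5 libraries was left out, with limma adjusted p-values of 0.0836, 0.0835 and 0.0992 without ACD 1, 2 and 3, and 0.0740 and 0.0560 without control 1 and 2. With eBayes run without its trend and robust settings the limma adjusted p was 0.0614, and with the replicate number as a block it was 0.0676. Without control 3 the call remained, at 0.0363, and the log2 fold change with 1 library left out lay between -0.55 and -0.44. Trpm7 has a GC content of 39.5%, and it lies in the top quartile of exon length among tested genes, from 5.66 kb up, and in the bottom quartile of GC content, up to 45.3%. Of the 1733 tested genes in both classes 4.85% were called lower and 0.346% higher in ACD, with a median log2 fold change of -0.09. A fold change as low as that of Trpm7 or lower was found for 7.33% of them. The share was 15.9% over the 21341 tested genes with a known exon length and GC content. These classes were chosen after the values were seen.

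Several marker lists had different summed levels in the 2 groups. Of 5 RNAs that are retained in the nucleus, Malat1, Meg3, Neat1, Miat and Snhg11, 4 were called lower, against 2.53% of all tested genes. All 5 had ACD values below all control values, which 15.5% of tested genes had, and their summed level was 94.0 to 134 FPKM in ACD and 337 to 384 in control cords. The 4 haemoglobin genes of red blood cells summed to 475 to 763 FPKM in ACD and 98.1 to 384 in controls, with 0 of 4 called, though Hba-a2 alone was at 22.6 ± 3.97 in ACD and 29.8 ± 16.8 in controls (SD, n = 3 each). The 3 Schwann cell markers summed to 190 to 284 in ACD and 63.9 to 121 in controls, with 0 of 3 called. Of 5 microglia markers 1 was called higher, with sums of 87.1 to 95.9 in ACD and 69.6 to 85.1 in controls. Of 5 astrocyte markers 1 was called higher, with sums of 899 to 970 in ACD and 689.9 to 811 in controls. The 4 neuron markers summed to 711 to 725 in ACD and 567 to 702 in controls, with 0 of 4 called. Sums of 3 skeletal muscle markers were 0.628 to 1.03 in ACD and 1.52 to 10.4 in controls, with 0 of 3 called. For 3 markers of neurons that contact the cerebrospinal fluid the sums were 3.11 to 3.53 in ACD and 3.75 to 3.98 in controls, with 0 of 3 called. Most of each of these sums was Pkd2l1, itself a TRP gene whose values are given again below. The oligodendrocyte sums given above did not overlap either, with 0 of 4 called. In the neuron list and in the oligodendrocyte list 1 of 4 markers had all ACD values above all control values, which 13.1% of tested genes had. Sums did overlap for the motor neuron, endothelium and mural cell lists. None of the markers in these lists was at 0 in all libraries, and their part in the Trpm7 result was not tested.

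**Figure D2:**
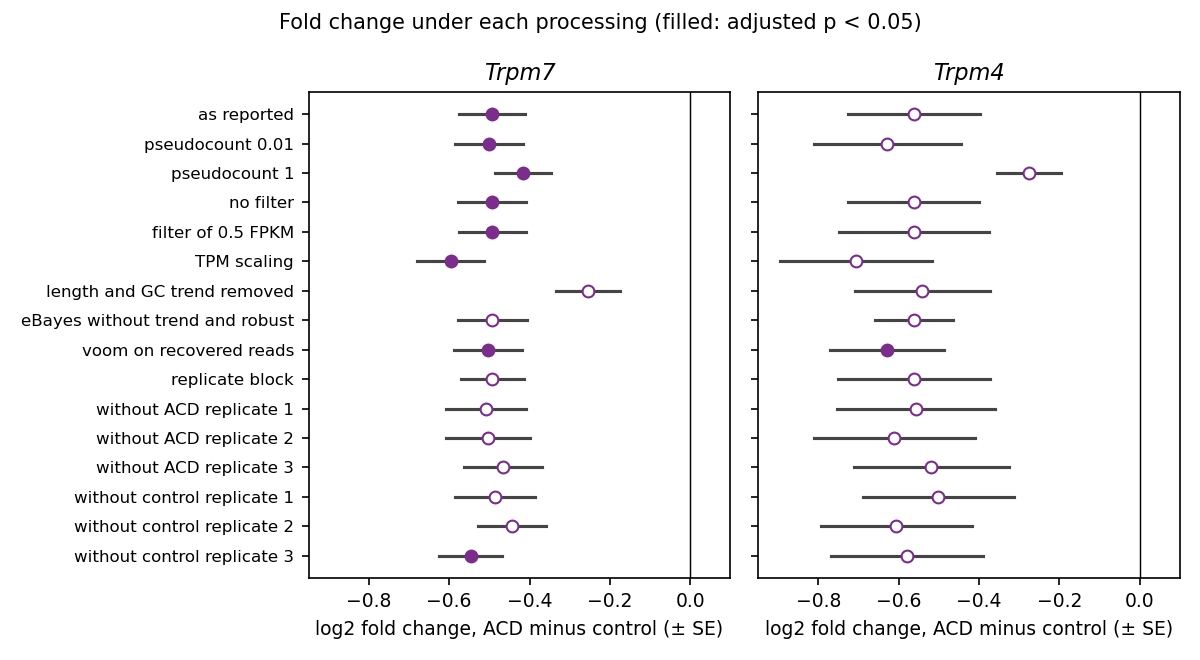
Log2 fold change of Trpm7 and Trpm4, ACD minus control, under the fit as reported and 15 alternatives; bars are 1 SE and filled points have an adjusted p under 0.05. Trpm7 stays between -0.60 and -0.25 and is closest to 0 with the length and GC trend removed, and Trpm4 passes the threshold under voom.

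The genes whose levels followed Trpm7 most closely over the 6 libraries were sought among 13649 tested genes that averaged 1 FPKM or more. Likeness was the mean absolute difference between log2(FPKM + 0.1) profiles centred on each gene's own mean, and the profiles include the difference between ACD and control. The nearest was Tial1, an RNA-binding protein that regulates splicing and translation, at a distance of 0.0279. Its level was 10.2 ± 0.539 FPKM in ACD and 14.3 ± 0.989 in controls (SD, n = 3 each). Mir22hg, the host transcript of a microRNA, followed at 0.0306, with 3.89 ± 0.268 FPKM in ACD and 5.48 ± 0.318 in controls. Guf1, a mitochondrial translation factor, was at 0.0321, with 1.96 ± 0.102 FPKM in ACD and 2.78 ± 0.0937 in controls. Zc3h7a, a zinc finger protein, was at 0.0353 and CT030661.1 at 0.0364. Trpm3, Trpm2, Trpc1 and Trpv2 also had levels high enough to be compared, and the closest of them, Trpc1, ranked 1952 in likeness at a distance of 0.183.

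**Figure D3:**
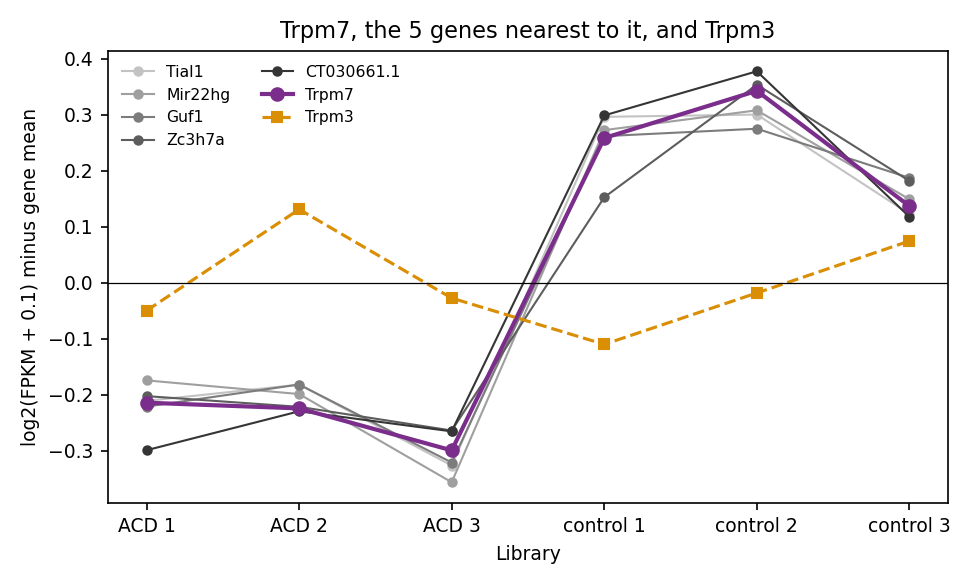
log2(FPKM + 0.1) of Trpm7 (purple), its 5 nearest genes (grey) and Trpm3 (dashed) in each library, each minus the gene's mean over the 6 libraries. Trpm7 and its neighbours are below 0 in the 3 ACD libraries and above 0 in the 3 controls, the pattern they were chosen for, while Trpm3 has values of both signs in each group.

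Trpm3 is a heat-sensitive channel that the steroid pregnenolone sulfate opens. It was the highest of the 9 genes in both groups. It spans 22139046 to 22995410 on the plus strand of chromosome 19 (mm10), and an intron holds Mir204. Trpm3 was at 14.9, 16.9 and 15.1 FPKM in ACD cords and at 14.3, 15.2 and 16.2 in controls, so the groups overlapped over most of their range. The means were 15.6 ± 1.09 in ACD and 15.2 ± 0.981 in controls (SD, n = 3 each). The log2 fold change was 0.04 (SE 0.08, limma adjusted p = 0.827), which with its 95% confidence interval allows a fold of 0.901 to 1.17. Its value depends on the scaling, with -0.061 after TPM scaling (limma adjusted p = 0.727) and 0.28 with the length and GC trend removed (adjusted p = 0.0803).

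Trpm3 made up 49.7% ± 2.47 of the summed FPKM of the 9 genes in ACD and 45.6% ± 1.80 in control cords (SD, n = 3 each). Choroid plexus is known for high Trpm3, and the markers of that tissue were low: 5 markers summed to 0.938 to 1.13 FPKM in ACD and 1.22 to 1.58 in controls, Otx2 was at 0 throughout, and 0 of 4 tested were called. The 4 ependyma markers summed to 18.7 to 19.9 in ACD and 17.6 to 20.9 in controls, with 0 of 4 called. The exons of Trpm3 overlap those of opposite-strand Gm27151 over 1.13% of their length and C330002G04Rik over 1.44%. The use of strand in counting is not given in the sources used here, so reads in these stretches cannot be told apart. The values of Trpm3 were not whole reads at its annotated exon length of 24.4 kb, so the length behind its FPKM differs from that annotation and its level relative to other genes may be off by that factor.

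Trpm2 is a calcium-permeable channel opened by ADP-ribose and oxidative stress, and microglia are among the cells that use it. The gene lies on the minus strand of chromosome 10 at 77907722 to 77970563 (mm10). Its level was 5.01, 4.81 and 5.14 FPKM in ACD cords and 5.35, 4.46 and 5.81 in controls. The 3 ACD values lay inside the range of the controls. The means were 4.99 ± 0.164 in ACD and 5.21 ± 0.687 in controls (SD, n = 3 each), and the log2 fold change was -0.05 (SE 0.11, limma adjusted p = 0.806), with a fold of 0.809 to 1.15 in the 95% confidence interval. In ACD cords Trpm2 exceeded Trpm7 in every library, with a ratio of means of 1.22, whereas in the controls Trpm7 had the higher mean and the ranges of both genes overlapped.

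Trpm4 is a channel for sodium and potassium that opens on intracellular calcium and does not itself pass calcium. It lies on the minus strand of chromosome 7 at 45302632 to 45333780 (mm10). Its level was 0.607, 0.662 and 0.571 FPKM in ACD cords and 1.04, 0.890 and 0.927 in controls. Each ACD value lay below each control value. Behind them stood 114, 145 and 113 reads in ACD and 191, 179 and 174 in controls. The log2 fold change was -0.56, farther from 0 than that of Trpm7, but with an SE of 0.16 and a limma adjusted p of 0.103 it did not pass. With voom on recovered reads, where 4.63% of 21353 genes were called lower, Trpm4 passed with a log2 fold change of -0.63 (adjusted p = 0.0174). Groups that did not overlap were seen for Trpm7, Trpm4 and Trpc1, all with ACD below control, which is 3 of the 7 tested genes, against 15.5% of all tested genes in that direction, 13.1% in the other and 28.6% in either.

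Trpc1 and Trpc4 encode subunits of channels that open downstream of phospholipase C. Trpc1, on the minus strand of chromosome 9 at 95705082 to 95750375 (mm10), is a subunit that works mainly in complexes with Trpc4 or Trpc5. It was at 2.84, 2.88 and 2.94 FPKM in ACD cords and 2.99, 3.27 and 3.22 in controls. The groups did not overlap, though the gap between ACD 3 and control 1 was small. Means of 2.89 ± 0.0526 in ACD and 3.16 ± 0.151 in controls (SD, n = 3 each) gave a log2 fold change of -0.13 (SE 0.08, limma adjusted p = 0.429), and the 95% confidence interval of the fold ran from 0.799 to 1.05.

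Trpc4, on the plus strand of chromosome 3 at 54156035 to 54318471 (mm10), was about an order of magnitude lower than Trpc1, at 0.301, 0.191 and 0.306 FPKM in ACD cords and 0.361, 0.208 and 0.244 in controls. It rested on 31 to 45 reads in ACD libraries and 31 to 49 in controls. The groups overlapped almost wholly. The log2 fold change was -0.01 with an SE of 0.30 (limma adjusted p = 0.985), so a fold anywhere from 0.611 to 1.61 lies in its 95% confidence interval. Its coefficient of variation was 24.6% in ACD and 29.5% in controls, against 15.9% and 16.2% from counting alone.

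Trpv2 is a channel of the capsaicin receptor subfamily that macrophages, microglia and some neurons express. It lies on the plus strand of chromosome 11 at 62574486 to 62600515 (mm10). It was at 3.18, 2.53 and 2.82 FPKM in ACD cords and 2.72, 2.35 and 2.83 in controls. The ranges overlapped, with the highest value in ACD 1 and the lowest in control 2. The means were 2.84 ± 0.322 in ACD and 2.63 ± 0.249 in controls (SD, n = 3 each), and the log2 fold change was 0.10 (SE 0.12, limma adjusted p = 0.653), with a fold of 0.883 to 1.31 in the 95% confidence interval.

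Trpa1 and Trpv1, the receptors for irritants and for capsaicin and heat, were near the limit of detection in the cord. Trpa1, on the minus strand of chromosome 1 at 14872648 to 14918862 (mm10), had 7, 3 and 12 reads in ACD libraries and 9, 3 and 9 in controls. These reads correspond to 0.0947, 0.0348 and 0.154 FPKM in ACD and 0.125, 0.0379 and 0.122 in controls. Trpv1, on the plus strand of chromosome 11 at 73234292 to 73261242 (mm10), had 0, 1 and 7 reads in ACD libraries and 5, 0 and 1 in controls, or 0, 0.0134 and 0.104 FPKM in ACD and 0.0803, 0 and 0.0157 in controls. A count of 0 allows up to 3 reads, which for Trpv1 is 0.0470 FPKM in ACD 1 and 0.0439 in control 2, for counting error only. The ranges of both genes overlapped between the groups, and both were under the filter, so they have no test there. Without the filter the log2 fold changes were -0.02 for Trpa1 (limma adjusted p = 0.994) and 0.05 for Trpv1 (adjusted p = 0.963).

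For both genes the highest ACD value was in ACD 3 and the highest control value in control 1. The primary sensory neuron markers Avil, Scn10a, Scn11a and P2rx3 were also highest in those libraries. Scn10a, a sodium channel of nociceptors, had 1, 4 and 17 reads in ACD libraries and 5, 3 and 1 in controls. Scn11a, another nociceptor sodium channel, had 1, 2 and 8 reads in ACD and 4, 0 and 1 in controls. Avil, an actin-binding protein of sensory neurons, was at 0.187, 0.276 and 0.354 FPKM in ACD and 0.261, 0.0792 and 0.102 in controls. Pirt was highest in ACD 3 among ACD cords but in control 3 among controls, Prph was highest in ACD 1 and control 2, and Mrgprd was at 0 in every library. The 8 markers summed to 32.1 to 49.9 FPKM in ACD and 24.9 to 41.2 in controls, nearly all of it Prph, which motor neurons also express, and 0 of 5 tested markers were called. How much sensory neuron RNA each cord sample held, and its part in the Trpv1 and Trpa1 values, was not tested.

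**Figure D4:**
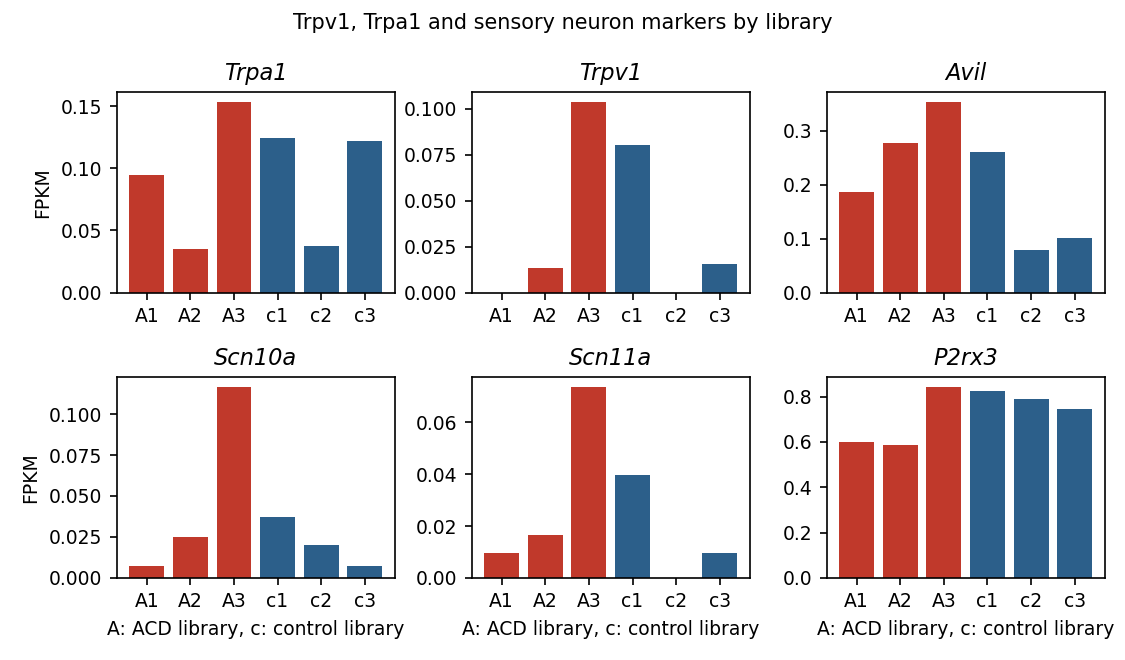
FPKM of Trpa1, Trpv1 and 4 markers of primary sensory neurons in each library (A1 to A3, ACD, red; c1 to c3, control, blue), each panel with its own axis from 0. Within each group the highest bars are in ACD 3 and control 1, for Trpv1 at 0.104 and 0.0803 FPKM. For Trpa1 the bars of controls 1 and 3 stand for 9 reads each, and P2rx3 is close in all controls. The 4 markers are from a list of 8, of which Pirt and Prph, not drawn, were not highest in both of those libraries.

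In ACD cords the levels ran in the order Trpm3, Trpm2, Trpm7, Trpc1, Trpv2, Trpm4, Trpc4, Trpa1 and Trpv1. The libraries of neighbours in that order overlapped for Trpc1 and Trpv2, whose means had a ratio of 1.02, and for Trpa1 and Trpv1. In control cords Trpm7 stood above Trpm2 with a ratio of 1.11 and overlapping libraries, and Trpc1 above Trpv2 without overlap, at 1.20. Control Trpa1 and Trpv1 overlapped as well. Summed over the 9 genes, the level was 31.1, 32.1 and 31.1 FPKM in ACD cords and 32.7, 32.6 and 34.7 in controls, or 51.3% and 51.4% of the FPKM of all 28 TRP genes in ACD and in controls. These sums and shares include genes such as Trpm3 whose levels relative to other genes may be off. The median log2 fold change of the 7 tested genes was -0.05, with 5 below 0 and 2 above, beside -0.01 over all tested genes.

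Of the other 19 TRP genes 14 passed the filter and 0 were called by limma, against 4.34% of all tested genes. At that share 0 calls among 14 genes says little. In the same limma fit 0 of the 14 had an unadjusted p under 0.05, against 22.3% of all tested genes, and their adjusted p-values were 0.232 to 0.996. Their log2 fold changes ran from -0.64 to 0.32. Those named next had a mean of at least 1 FPKM unless stated. The polycystin Pkd2l2 was at 7.51 ± 0.440 FPKM in ACD and 7.57 ± 0.443 in controls, though 10.9% of its exon length overlaps the opposite-strand gene Fam13b. As for Trpm3, the values of Pkd2l2 were not whole reads at its annotated exon length, so its level relative to other genes may be off. The lysosomal channel Mcoln1 was at 7.24 ± 0.150 in ACD and 7.24 ± 0.872 in controls. Pkd2, the cilium channel mutated in polycystic kidney disease, was at 5.04 ± 0.0917 in ACD and 5.77 ± 1.01 in controls (all SD, n = 3 each).

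Pkd2l1 marks the neurons that contact the cerebrospinal fluid around the central canal. It was at 2.60, 2.42 and 2.76 FPKM in ACD cords and 2.91, 2.94 and 3.12 in controls, without overlap, and did not pass (log2 fold change -0.20, SE 0.09, limma adjusted p = 0.253). Trpc5, the usual partner of Trpc1 and Trpc4, was at 2.83 ± 0.259 in ACD and 2.83 ± 0.105 in controls. Trpm6, the closest relative of Trpm7 and the only other channel of the family with a kinase domain, was at 0.248, 0.296 and 0.370 FPKM in ACD and 0.381, 0.223 and 0.319 in controls, with a log2 fold change of -0.00 (SE 0.27). Whether the changes of Trpm6 and Trpm7 differ was not tested. Trpm6 was named after its values were seen, and these too were not whole reads at the annotated exon length. Trpc2 and Trpv5 were at 0 in all 6 libraries, and 97.5% of the exon length of Trpc2 is shared with the gene model Xntrpc.

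**Figure D5:**
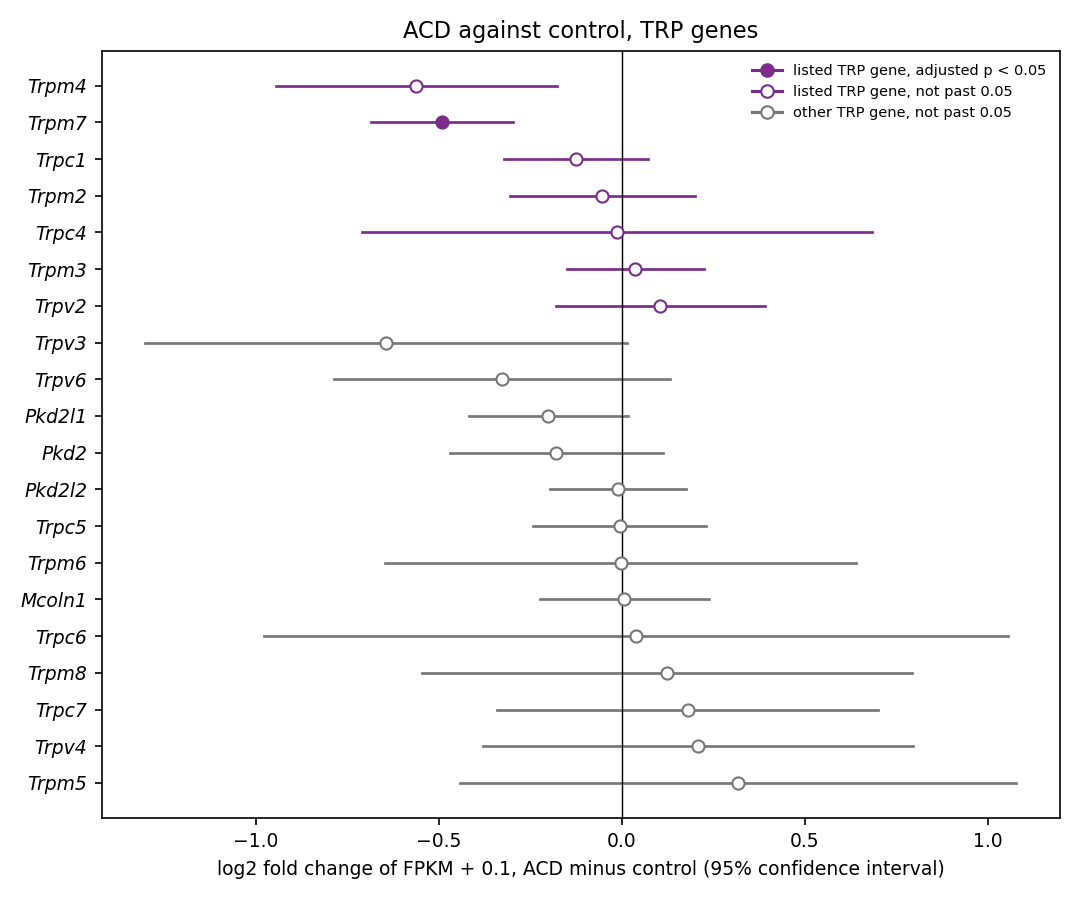
Log2 fold change of FPKM + 0.1, ACD minus control, with its 95% confidence interval, for the 7 tested genes of the list (purple, above) and for other tested TRP genes (grey, below); the filled point has an adjusted p under 0.05. Trpm7 at -0.49 is the single filled point, and the interval of Trpm4 at -0.56 also lies below 0.

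Genes that work with these channels were read from 4 lists, and limma called 0 genes in each. Over all tested genes 22.3% had an unadjusted p under 0.05, against which the counts of such genes in these lists are to be read; among the 7 tested channel genes Trpm7 and Trpm4 had one. Of 18 tested genes of magnesium handling 2 had an unadjusted p under 0.05, and the median log2 fold change was 0.03. The smallest p was that of Magt1, a subunit of the oligosaccharyltransferase that has also been linked to magnesium transport, at 16.3 ± 1.65 FPKM in ACD and 13.3 ± 0.859 in controls (log2 fold change 0.29, limma adjusted p = 0.122). Among 20 genes of phospholipase C signalling and store-operated calcium entry 3 had an unadjusted p under 0.05, with a median of 0.05. Calm3, which encodes calmodulin, was at 719 ± 3.54 FPKM in ACD and 606 ± 18.8 in controls (0.25, limma adjusted p = 0.0762).

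Of 8 genes that make or break down ADP-ribose or pair with Trpm4, 3 had an unadjusted p under 0.05 and the median was 0.04. Bst1, an enzyme that makes cyclic ADP-ribose, was at 0.452 ± 0.0309 FPKM in ACD and 0.184 ± 0.0331 in controls (log2 fold change 0.97, limma adjusted p = 0.0712). Of 14 itch receptors that signal through Trpv1 or Trpa1 in sensory neurons, 9 were tested, 1 had an unadjusted p under 0.05, and Hrh4, Mrgprx1 and Mrgprd were at 0 in all libraries. The median of the 9 was 0.11. Bdkrb2, the bradykinin receptor, was at 0.733 ± 0.0284 FPKM in ACD and 1.21 ± 0.0924 in controls (-0.65, limma adjusted p = 0.0548).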

How the data were processed

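RNA from 6 cervical cords was analysed as deposited by the authors: FPKM per Ensembl gene, 1 table per library. Tools listed in the submitters' processing notes, without a role, are DESeq2 1.16.1, featureCounts 1.5.0-p3 and HISAT2 2.0.5, with the build mm10. The sources used here do not give strand or annotation release. GENCODE M21 (the same build) gave symbols and exon lengths for 54495 of 54532 identifiers. When FPKM was multiplied by exon length and by each library's denominator, 96.9% of values above 0 came out as whole reads (tolerance 0.05).

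The fit was limma 3.58.1 in R 4.3.3 (eBayes with trend and robust) on log2(FPKM + 0.1), for genes averaging 0.1 FPKM or more, with Benjamini-Hochberg adjustment over all 21369 genes. Alternatives were other pseudocounts and filters, TPM scaling, removal of a length and GC trend, voom on recovered reads, a replicate block and leaving out each library.

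The 9 genes and all lists were chosen with earlier results of these data known. Named are all 9, other TRP genes that were called or had a mean of at least 1 FPKM, the member of each partner list with the smallest p where none was called, and the 5 genes nearest Trpm7; further genes were picked with their values in view. Ptp4a1, with 2 identifiers, was left out, and some genes that the rule covers are not reported here.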

Additional observations from a re-analysis of the deposited data

How the results depend on the processing

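Genes called numbered 927 (41.6% higher). The number was 556 without a filter, 420 with eBayes without trend and robust, 1690 with voom, 181 with the replicate block and 192 to 736 with 1 library left out; it was 784 (22.3% higher) after TPM scaling, which moved the median of all genes to -0.13, and 1325 (64.7% higher) with the length and GC trend removed. Of the 9 genes, 1 was called. This became 0 with the length and GC trend removed, with eBayes without trend and robust and with the replicate block, 2 with voom, and 0 to 1 with 1 library left out. Trpm7 kept its sign under all 15 alternatives, from -0.60 to -0.25 with adjusted p of 0.00398 to 0.105. It missed the threshold at -0.25 with the trend removed, at -0.49 with eBayes without trend and robust (adjusted p = 0.0614) and at -0.49 with the replicate block (adjusted p = 0.0676), and lay at -0.55 to -0.44 with 1 library left out. The cause of these losses was not tested. Deviations of same-numbered libraries correlated at -0.0711, 0.0770 and 0.0502 over 13650 genes, and not every library correlated best with its own number. These correlations cannot decide whether same-numbered samples are paired, because deviations from a group mean sum to 0. Signs turned for Trpm3 (-0.061 after TPM scaling, 0.28 with the trend removed; -0.021 to 0.082 with 1 library left out), Trpm2 (0.0031 with the trend removed; -0.16 to 0.028 with 1 library left out) and Trpc4 (0.066 with the trend removed; -0.14 to 0.15 with 1 library left out), none of them called. Trpm4 passed with voom at -0.63. Trpc4 gave no value under the filter of 0.5 FPKM. Trpv1 and Trpa1 rest on 0 to 12 reads per library. The coefficient of variation of Trpv1 was 145% in ACD and 133% in controls, against 61.2% and 70.7% from counting alone. For Trpa1 it was 63.1% and 52.0%, against 36.9% and 37.8%. Whether these spreads exceed counting error was not tested.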
